A study of Drosophila melanogaster with 6 samples.

Results

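The 52 genes described here encode G protein-coupled receptors of Drosophila melanogaster for octopamine, tyramine, acetylcholine (muscarinic), GABA (metabotropic), adenosine and neuropeptides or peptide hormones. They were taken as a named list, and all 52 were found among the 17807 genes of the RefSeq table (Release 6, dm6) that lie on the main chromosome arms. DNA of wild-type adult heads had been enriched with an antibody to 5-methylcytosine and sequenced (MeDIP-seq). The lead group carried the label 800um and the control group the label 0um, each with 3 libraries, and all 6 libraries carried the label F3. The labels give no age, sex, pooling or separate culture for a replicate, and the tissue could not be checked by markers since only DNA was measured. A receptor gene was counted as having a peak in a library when a peak of that library's list overlapped its annotated span or the 1 kb on either side.

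These receptors act through G proteins, which raise or lower second messengers such as cyclic AMP and calcium, and so adjust how neurons and endocrine cells respond over longer times than ion channels do. Octopamine and tyramine, made from tyrosine, set arousal, flight, feeding and reward learning in insects, while neuropeptides coordinate the clock, feeding, moulting, diuresis and mating. The fly genome is known for very little cytosine methylation and lacks the maintenance and de novo methyltransferases of vertebrates, so a peak of antibody enrichment does not by itself show methylated cytosine.

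The deposited lists held 1379 to 3522 peaks per library after repeated rows were dropped, with lead replicate 2 the shortest and lead replicate 1 the longest. Sequencing depth is unknown, and an absent peak does not show an absence of methylation. In lead replicate 1, 32.1% of peaks lay on X, against 21.6% to 24.5% in the other libraries.

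A peak was found at 12 of the 52 receptor genes (23.1%) in at least 1 library, where 12.2% of all genes had one. SPR and Octbeta3R had a peak in all 6 libraries (3.85% of the receptors, against 3.69% of all genes). These shares do not allow for gene length, with median spans of 17576 bp for the receptors and 1695 bp for all genes. No receptor gene had peaks in all lead and no control libraries (0.0618% of all genes did) or in all control and no lead libraries (0.00562% of all genes). ETHR was the only receptor gene whose counts of lead and control libraries differed by 2 or more, found in every lead library and in control replicate 2. Among all genes, 0.618% had at least 2 more lead than control libraries and 0.241% at least 2 more control than lead libraries. For 6 receptor genes, 11.5% of the list against 3.12% of all genes, the peak was seen in a single library. Most of these 12 genes therefore carried enrichment in some libraries and not in others of the same group.

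**Figure D1:**
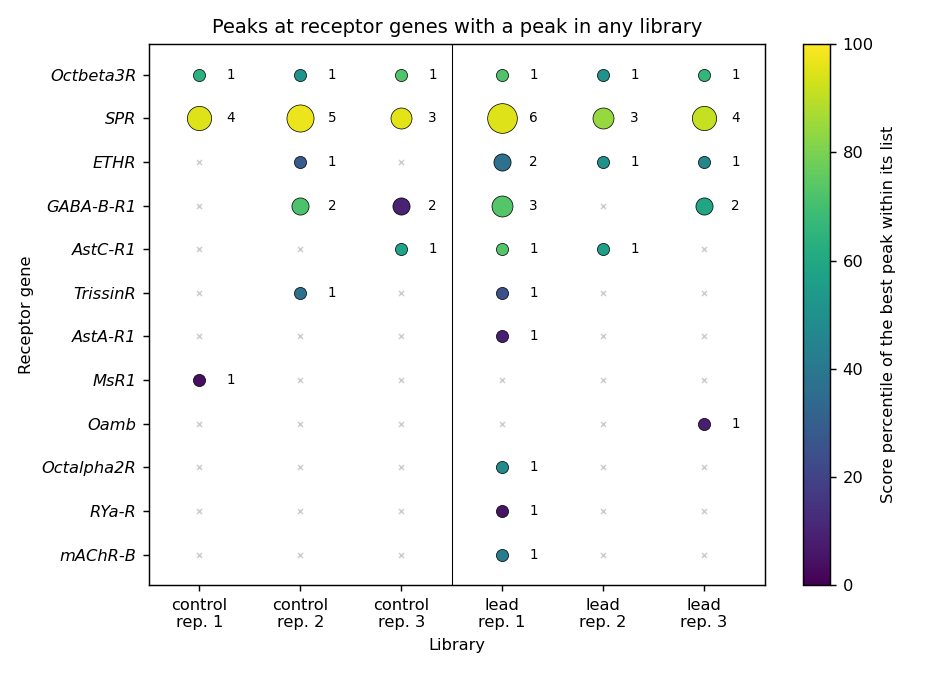
Peaks at the 12 receptor genes with a peak in any library, by library. Rows are genes, columns are the 3 control and 3 lead libraries, the number and the size of each dot give the peaks at the gene, the colour gives the score percentile of its best peak within that library's list, and a grey cross marks no peak. SPR and Octbeta3R have a dot in every column, and the 6 lowest rows have a dot in 1 column each.

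Among the 8 octopamine and tyramine receptors, Octbeta3R carried the recurrent peak. Octbeta3R (3R, 12511570 to 12548229) encodes a beta-type octopamine receptor that raises cyclic AMP. It had 1 peak in each library, always at the same place, within 12514854 to 12515182, a region whose midpoint is 3448 bp from the lower-coordinate end of the 36660 bp span. The score percentile of a peak is the share of peaks in the same list with an equal or lower score; the score is the authors' own and its meaning is not stated. At Octbeta3R the percentile was 63.9, 51.3 and 72.3 in control replicates 1, 2 and 3 and 71.9, 50.5 and 65.7 in lead replicates 1, 2 and 3, so the groups overlapped. The peak ranked above the middle of 4 lists, and in control replicate 2 and lead replicate 2 its score equalled the median of the list (41 and 49). Its width was 223, 241 and 281 bp in control and 329, 284 and 279 bp in lead libraries (means 248.3 ± 29.7 and 297.3 ± 27.5 bp, SD, n = 3), with lead replicate 3 narrower than control replicate 3.

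The alpha-type octopamine receptors had a peak in 1 lead library each. Octalpha2R, which lowers cyclic AMP, had a peak of 226 bp at 18835036 to 18835261 on 3R in lead replicate 1, at percentile 48.1. Oamb, a calcium-coupled receptor needed for reward learning and ovulation, had a peak of 219 bp at 20708947 to 20709165 on 3R in lead replicate 3, at percentile 8.24, close to the bottom of that list. No peak was found at the other beta-type receptors Octbeta1R and Octbeta2R or at TyrR, TyrRII and Oct-TyrR, which respond to tyramine. Octbeta2R spans 45101 bp and was the longest receptor gene without a peak. Its nearest peak region in any library lay 16893 bp away.

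Of the muscarinic receptors, mAChR-B, which couples to inhibition of cyclic AMP, had a peak at 8082494 to 8082720 on 3R in lead replicate 1, at percentile 41.7. No peak was found at mAChR-A or mAChR-C, both of which signal through calcium. Of the metabotropic GABA receptors, GABA-B-R1 (2L, 15016331 to 15034704) encodes the ligand-binding partner of the receptor dimer. Control replicates 1, 2 and 3 had 0, 2 and 2 peaks there, and lead replicates 1, 2 and 3 had 3, 0 and 2. The libraries without a peak, control replicate 1 and lead replicate 2, were those with the fewest peaks in their lists, 1746 and 1379.

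The GABA-B-R1 peaks fell in 3 places that not every library shared. The first, at 15017186 to 15017575, was found in lead replicates 1 and 3 and in control replicate 3. The second, at 15027703 to 15028014, was found in lead replicates 1 and 3 and in control replicate 2, and it also overlaps CG33310, which lies within the GABA-B-R1 span. The third, at 15033744 to 15034014, was found in lead replicate 1 and in control replicates 2 and 3. The second place held the highest-ranking peaks, at percentiles 73.2 and 58.8 in the lead libraries and 71.5 in the control library, while the other places held peaks between 3.98 and 39.2. No peak was found at GABA-B-R2, the partner that reaches the G protein, at GABA-B-R3, or at AdoR, the adenosine receptor.

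Among the 29 rhodopsin-type peptide receptors, 7 had a peak and SPR stood out by number. SPR (X, 5446656 to 5494012) encodes the receptor for sex peptide, through which mating changes female behaviour, and for myoinhibitory peptides. Control replicates 1, 2 and 3 had 4, 5 and 3 peaks at SPR, and lead replicates 1, 2 and 3 had 6, 3 and 4. It supplied 25 of the 56 receptor peaks summed over the libraries. The group means, 4.33 ± 1.53 for lead and 4 ± 1 for control (SD, n = 3), differed by less than the spread between replicates (exact permutation test, two-sided, p = 1, Benjamini-Hochberg adjusted p over 2173 genes 1).

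The SPR peaks concentrated in a stretch of 3702 bp at 5481150 to 5484851 on X, where 3 neighbouring regions each had a peak in all 6 libraries. The regions lie 311 and 223 bp apart and are 1643, 1016 and 509 bp wide. The widest was split into separate peaks in control replicates 1 and 2 and lead replicate 3, and the 1016 bp region in control replicate 2. The number of peaks at SPR is therefore not a number of distinct sites. Peaks covered 2401, 2483 and 2759 bp of the stretch in control replicates 1, 2 and 3 and 3097, 2359 and 2075 bp in lead replicates 1, 2 and 3. The means were 2548 ± 188 bp in control and 2510 ± 528 bp in lead libraries (SD, n = 3), and the lead libraries held both the widest and the narrowest coverage. The best peak ranked 94th of 1746, 70th of 2414 and 96th of 2157 in the control lists and 189th of 3522, 220th of 1379 and 222nd of 2536 in the lead lists. As percentiles these were 94.7, 97.1 and 95.6 in control and 94.7, 84.1 and 91.3 in lead. The highest lead percentile and the lowest control percentile were both 94.7 after rounding, and no lead percentile lay above a control percentile. The score of the best peak was 138, 142 and 140 in control and 115, 81 and 97 in lead replicates 1, 2 and 3, without overlap. In the 1016 bp region the best scores overlapped, at 69 to 103 in control and 50 to 86 in lead libraries. So did those of the 509 bp region, at 76 to 91 and 56 to 84. The lists were called separately and differ in length, and the meaning of the score is not stated. These ranks and scores therefore cannot show whether enrichment at the stretch differed between groups.

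The other 3 SPR peaks were found only in lead replicate 1, the library with the larger X share, at 5446267 to 5446486 (170 bp below the annotated span), 5449550 to 5449823 and 5469037 to 5469270. Their percentiles were 39.2, 12.7 and 54.1, below the 87.7 to 94.7 of that library's peaks in the shared stretch. Whether the X share of lead replicate 1 bears on these peaks was not tested.

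**Figure D2:**
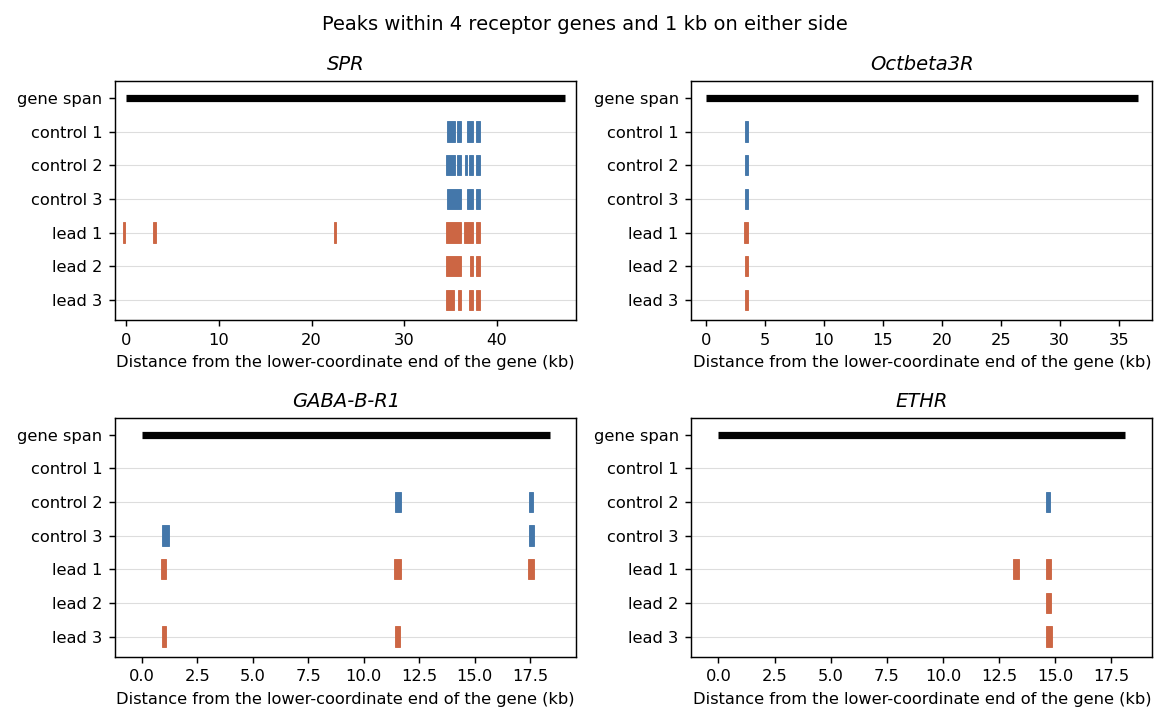
Positions of peaks at SPR, Octbeta3R, GABA-B-R1 and ETHR. The horizontal axis is the distance in kb from the lower-coordinate end of each gene, the black bar is the annotated span, and coloured blocks are the peaks of the control (blue) and lead (orange) libraries. The 3 shared SPR regions line up inside the gene in all 6 libraries, with midpoints at 74.6% to 80.1% of the span from the lower end. The Octbeta3R region, centred 3448 bp from the lower end, has a peak in all 6.

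ETHR showed the widest gap between groups. ETHR (3R, 21247011 to 21265134) encodes the receptor for ecdysis triggering hormone, which starts moulting behaviour and in adults acts on juvenile hormone production. Control replicates 1, 2 and 3 had 0, 1 and 0 peaks at ETHR, and lead replicates 1, 2 and 3 had 2, 1 and 1. The groups overlapped, since control replicate 2 had as many peaks as lead replicates 2 and 3. The lead mean was 1.33 ± 0.577 peaks and the control mean 0.333 ± 0.577 (SD, n = 3), a difference of 1 peak that did not pass the test (exact permutation, two-sided, p = 0.3, Benjamini-Hochberg adjusted p over 2173 genes 1; the smallest p the design allows is 0.1).

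The recurrent ETHR peak lay at 21261587 to 21261847, with its midpoint 14706 bp from the lower-coordinate end. Its percentile was 36.9, 50.5 and 46.6 in lead replicates 1, 2 and 3 and 28.5 in control replicate 2, in the lower or middle part of each list. The extra peak of lead replicate 1, at 21260120 to 21260413, had percentile 8.94. With only peaks of at least the median score of all lists, 1 lead and 0 control libraries kept a peak at ETHR. With the 1379 highest-scoring peaks of each list, 1 lead library kept it where ties in score were broken by position and 2 lead libraries where all tied peaks were kept, against 0 control libraries in both cases. The former was lead replicate 2, whose whole list is 1379 peaks, so this setting could not remove its peak. Without control replicate 2, ETHR was the 1 receptor gene with a peak in every remaining lead and no remaining control library. Without any 1 of the lead libraries, which leaves 2 lead libraries to count, no receptor gene differed by 2 or more.

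AstC-R1 encodes a receptor for allatostatin C, the insect relative of somatostatin. Its peak at 18562545 to 18562821 on 3L was found in lead replicates 1 and 2 and in control replicate 3. The percentiles were 73.2 and 55.8 in the lead and 58.4 in the control libraries, all above the middle of the list. TrissinR, the receptor for the peptide trissin, had a peak at 5852679 to 5852911 on 2L in lead replicate 1 and control replicate 2, at percentiles 24.5 and 37.0. It was found in equal numbers of lead and control libraries.

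The remaining 3 peptide receptors with a peak had it in a single library and near the bottom of the list. AstA-R1, an allatostatin A receptor related to galanin receptors and the longest receptor gene at 92189 bp, had a peak at 3604047 to 3604265 on X in lead replicate 1, at percentile 8.94. RYa-R, the receptor for RYamide peptides, had a peak at 27050556 to 27050768 on 3R in lead replicate 1, at percentile 4.88. That peak also overlaps TwdlT, which lies within the RYa-R span. MsR1, a receptor for the muscle-relaxing peptide myosuppressin, had a peak at 2325216 to 2325504 on 3L in control replicate 1, at percentile 3.61, and was the 1 receptor gene with more control than lead libraries.

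No peak was found at the 4 secretin-type peptide receptors, the 4 leucine-rich repeat hormone receptors or the 6 receptor genes on 2R, where 10.3% of all genes on that arm had one. Over all genes the share was 12.2%, which does not allow for gene length. The median span was 19999 bp for the secretin-type and 14956 bp for the leucine-rich repeat receptors, and 35.0% of all genes from 10 to 20 kb had a peak. The sets are small, and whether a count of 0 sets any of them apart was not tested. The secretin-type receptors are Pdfr, which synchronises clock neurons, and the diuretic hormone receptors Dh31-R, Dh44-R1 and Dh44-R2. The leucine-rich repeat receptors are rk, the bursicon receptor that hardens the new cuticle, Lgr3, which reads Ilp8, Lgr1 and Lgr4. The other 22 rhodopsin-type peptide receptors without a peak were NPFR, sNPF-R, AstA-R2, AstC-R2, CCKLR-17D1, CCKLR-17D3, CCHa1-R, CCHa2-R, SIFaR, TkR86C, TkR99D, CCAP-R, CrzR, AkhR, Lkr, CapaR, PK1-R, PK2-R1, PK2-R2, MsR2, FMRFaR and Proc-R. They include receptors of feeding (NPFR and sNPF-R), of energy release from the fat body (AkhR) and of fluid balance (Lkr and CapaR).

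For the 40 receptor genes without a peak, the nearest peak region of any library lay 1708 to 64706 bp from the annotated span, with a median of 17446 bp. It lay within 10 kb for 9 of them. AkhR was nearest, at 1708 bp from a region on 2L (6717894 to 6718328) that had a peak in all 6 libraries, with best percentiles from 28.6 to 92.6. AkhR is therefore the 1 gene that joined when 2 kb on either side was counted. Dh44-R2, at 4907 bp, was also nearest to a region with a peak in all 6 libraries. CCHa2-R, which responds to the nutrient-linked peptide CCHamide-2, lay farthest from any peak region.

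The length of a gene went with the chance of finding a peak. The 12 receptor genes with a peak had a median span of 30265 bp and the 40 without one 13600 bp, where all genes had a median of 1695 bp. No peak was found at the 12 receptor genes of up to 10 kb, where 5.61% of all genes of up to 5 kb and 18.8% of those from 5 to 10 kb had one. From 10 to 20 kb, 3 of 22 receptor genes had a peak (13.6%) against 35.0% of all genes. From 20 to 40 kb it was 5 of 13 (38.5%) against 60.7%, and above 40 kb it was 4 of 5 (80.0%) against 81.0%. The share of receptor genes was thus higher than that of all genes over the whole list, and at or below it in each length class. A peak in all 6 libraries was found at 0 of 22 receptor genes from 10 to 20 kb, against 9.94% of all genes. From 20 to 40 kb it was 1 of 13 against 20.5%, and above 40 kb 1 of 5 against 40.4%. These differences were not tested.

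**Figure D3:**
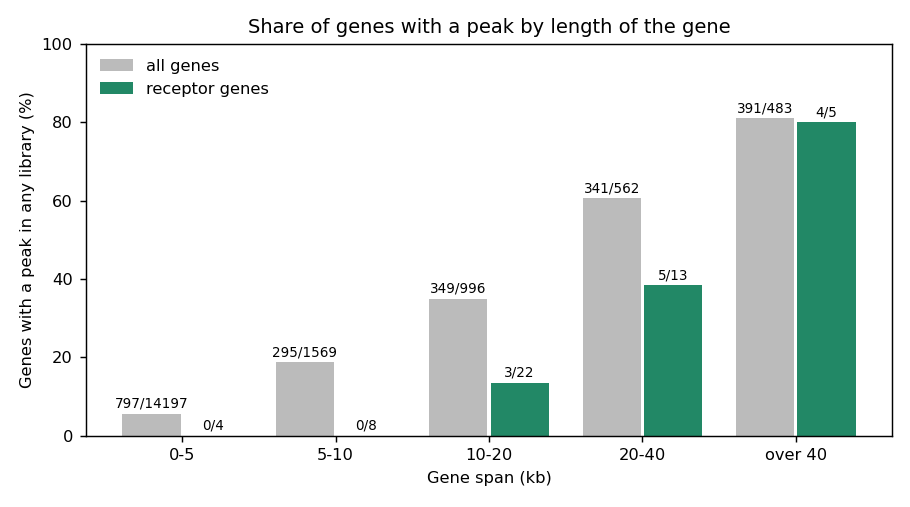
Percent of genes with a peak in at least 1 library, by gene span in kb, for all genes (grey) and receptor genes (green). The numbers above the bars are genes with a peak over genes in the class. Both rise with length, from 0 of 4 to 4 of 5 for receptor genes and from 5.61% to 81.0% for all genes.

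The study asked whether lead exposure altered genome methylation, and over the receptor list the groups overlapped. A peak was found at 3, 5 and 4 receptor genes in control replicates 1, 2 and 3 and at 10, 4 and 5 in lead replicates 1, 2 and 3. The means were 6.33 ± 3.21 in lead and 4 ± 1 in the controls (SD, n = 3), while over all genes they were 1365 ± 491 and 1217 ± 123 (SD, n = 3). Lead replicate 1 stood apart from the other libraries in both counts and in the length of its list. Without it the difference of 2.33 receptor genes was 0.500 (3.50 without lead replicate 2), and 8 receptor genes had a peak in place of 12. The 4 that dropped out were Octalpha2R, mAChR-B, AstA-R1 and RYa-R.

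Summed over the receptor genes, control replicates 1, 2 and 3 had 6, 10 and 7 peaks, and lead replicates 1, 2 and 3 had 18, 6 and 9. The difference of means, 3.33 peaks, turned to -0.167 without lead replicate 1 and was 5.83 without lead replicate 2. As a share of each list, which allows for its length, the receptor peaks made up 0.344%, 0.414% and 0.325% of control lists and 0.511%, 0.435% and 0.355% of lead lists. The 95% Wilson intervals, which cover counting error only, all overlapped and ran from 0.157% at the lowest bound to 0.946% at the highest. They treat peaks as independent, although SPR supplied 25 of the 56 receptor peaks, some of them parts of a split region. The means were 0.434% ± 0.0781 in lead and 0.361% ± 0.0473 in the controls (SD, n = 3), and lead replicate 3 lay below control replicate 2. The difference of 0.0729 percentage points was 0.0342 without lead replicate 1 and 0.112 without lead replicate 3.

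**Figure D4:**
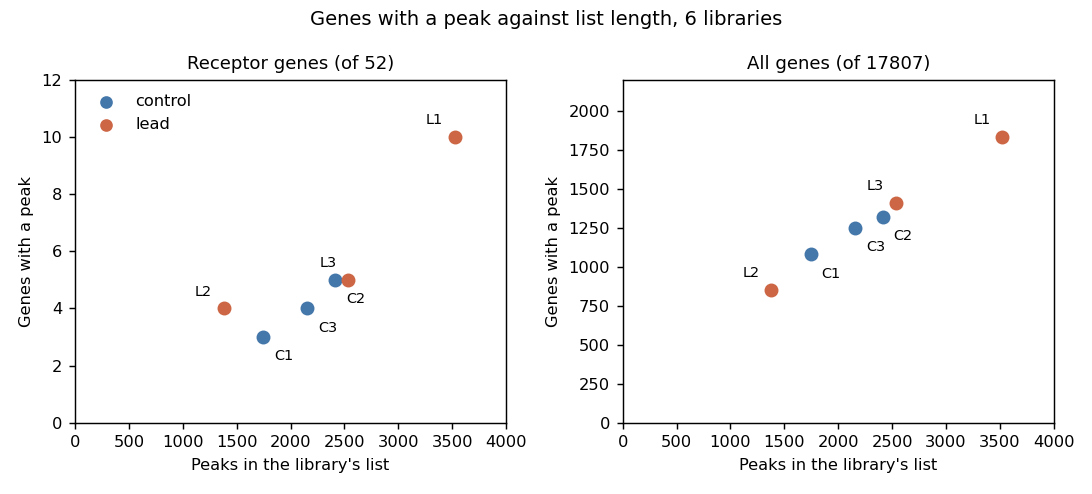
Genes with a peak (vertical axis) against the number of peaks in the library's list (horizontal axis), for the 52 receptor genes on the left and all 17807 genes on the right. Each point is 1 library, control (C) in blue and lead (L) in orange, labelled with its replicate number. Lead replicate 1 has the longest list and the highest count in both panels, and the other 5 libraries hold 3 to 5 receptor genes with a peak.

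Gene by gene, no receptor passed a test of lead against control. The number of peaks at each of the 2173 genes with a peak in any library was compared between groups with an exact two-sided permutation test over the 20 ways to assign the libraries, with Benjamini-Hochberg adjustment over these genes. The smallest p was 0.1, reached by 17 genes of which none was a receptor, and the smallest adjusted p was 1. With 3 libraries a group the test cannot pass, so it does not show that the groups were alike. Since nothing in the labels says that replicates came from separate flies, these p-values measure the spread between these libraries only.

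The 56 receptor peaks merged into 20 regions. All 6 libraries shared 4 of these regions (20%), and 19.6% of the 4538 regions of the whole series. The 4 are the shared SPR regions and the Octbeta3R region. A single library held the peak at 10 of the 20 regions (50%, against 35.5%), and that library was lead replicate 1 for 8 of them. That library had the longest list, 3522 peaks, and its share of such regions over the whole series was not counted. All but 1 of the 20 regions touched an annotated receptor span.

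Of 39 neuropeptide and hormone genes that could be placed, 3 had a peak (7.69%, against 12.2% of all genes). All 3 had it in lead replicate 1, the longest list with 3522 peaks, and none in a control library. The share of all genes with a peak in lead libraries alone was not counted. NPF and RYa had at least 2 more lead than control libraries, as did 0.618% of all genes. NPF, a peptide of brain and gut that promotes feeding, had a peak at 16609308 to 16609576 on 3R in lead replicates 1 and 3, at percentiles 12.7 and 66.9. RYa, which encodes the RYamides, had one in the same 2 libraries, at percentiles 0.625 and 60.8, but the region, 728 bp from the gene, had peaks in all 6 libraries and only those of lead replicates 1 and 3 reached within 1 kb. The third was amn, in lead replicate 1. The 39 genes had a median span of 2106 bp, against 1695 bp for all genes. NPFR, the receptor for NPF, had no peak in any library.

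Of 10 genes of transmitter synthesis and transport, 5 had a peak (50%) and 3 had it in all 6 libraries. Over all genes the shares were 12.2% and 3.69%. The median span of the 10 genes was 14042 bp, and of all genes from 10 to 20 kb the shares were 35.0% and 9.94%. From 20 to 40 kb, where Tbh and ChAT lie, they were 60.7% and 20.5%. Tbh encodes the enzyme that converts tyramine to octopamine, and its peak on X ranked from percentile 28.5 to 95. ChAT, which makes acetylcholine, and VAChT, which loads it into vesicles, share their start in the annotation and the same peaks, at best percentiles of 35.8 to 78.8. No gene of this group differed by 2 or more libraries between lead and control.

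Downstream of the receptors, 16 of 33 G protein signalling genes had a peak (48.5%) and 8 had it in all 6 libraries. No gene of this list differed by 2 or more libraries. Of all genes, 12.2% had a peak and 3.69% had one in all 6 libraries. Of those from 10 to 20 kb, the range whose upper end holds this list's median span of 19420 bp, it was 35.0% and 9.94%. The shares were 60.7% and 20.5% from 20 to 40 kb, and 81.0% and 40.4% above 40 kb, where Plc21C, norpA, Ac13E, Gprk1 and dnc lie. The part of length was not tested. The 8 were Plc21C and norpA, phospholipases C, Gbeta13F, a G protein beta subunit, Gprk1, a receptor kinase, Ac13E, an adenylyl cyclase, dnc, the cyclic AMP phosphodiesterase, Pka-C1, a catalytic subunit of protein kinase A, and CrebB, a transcription factor it activates. Plc21C ranked highest, at best percentiles of 97.4 to 98.9 over the 6 libraries.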

How the data were processed

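MeDIP-seq peak lists of 3 lead and 3 control libraries of adult fly heads were used. Titles give the groups. The tools named per the submitters' processing notes are cutadapt and Bowtie2 2.1.0, and the build is dm6. Each list was made from an immunoprecipitated library against its own input, per the names in the deposited lists. The peak caller and its threshold were not given in the sources used here. The score deposited for each peak is a whole number of unstated meaning, used here to rank or filter within a list. The exceptions are the scores given for SPR and the median-score setting, which applied 1 cut of 47 to all lists. List medians ran from 41 to 54, so that cut kept unlike shares of the lists.

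Repeated rows were dropped. Coordinates are dm6 and 1-based. Gene spans came from the RefSeq table of the same assembly (Release 6), which has no strand or exons. Sequence was not used here. Regions are peaks of any library that overlap by at least 1 bp.

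The receptor and pathway lists were chosen with earlier results of these data known, so counts over a list have no test. Length classes were chosen after the data were seen. Every receptor with a peak is named, with full values for those with a peak in all 6 libraries, those whose counts of lead and control libraries differ by 2 or more, and those with the most regions. Pathway genes are named under the first 2 conditions. amn, below that rule, was named after its value was seen. Functions were tested on simulated peaks. Alternatives kept scores at or above the median of all lists (47) or kept the 1379 best peaks of each list (ties broken by position). Others used no flank or 2 kb, placed peaks by their midpoint, left out each library in turn, or blocked on the replicate number. Leaving out X, and keeping all tied peaks in equal lists, were added after the data were seen. Software was matplotlib 3.10.9, pandas 2.3.3, Python 3.11.15, scipy 1.17.1 and numpy 2.4.6.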

Additional observations from a re-analysis of the deposited data

How the results depend on the processing

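The counts and group differences had 104 alternative values that the design left free to move. Of these, 92 stayed within 1 SD of the replicates or 1.5 times the count, and 12 did not. The SD was 2.38 for the difference of 2.33 receptor genes and 4.65 for the difference of 3.33 receptor peaks. Those differences could vanish or change sign and still count as having stayed, so the 92 does not show that they held. The difference in receptor peaks was -0.167 without lead replicate 1 and was counted so. Receptor genes with a peak in at least 1 library numbered 5 in place of 12 with a score of at least the median, with equal numbers of peaks and with equal numbers and ties kept (5 each), and the genes left were SPR, Octbeta3R, GABA-B-R1, AstC-R1 and ETHR in each case. Receptor genes with a peak in all 6 libraries numbered 1 in place of 2 with the median score and 1 with peaks on X left out. With the median score, Octbeta3R was lost from control replicate 2, where its score of 41 was below the cut of 47 for all lists. Receptor genes differing by 2 or more libraries numbered 0 in place of 1 with the median score and with equal numbers, but 1 with equal numbers and ties kept (ETHR), and from 0 to 2 without each library in turn, where AstC-R1 joined ETHR without control replicate 3. Receptor genes with a peak in every lead and no control library ranged from 0 to 1 without each library. Fewer peaks are left by these score and number settings; beyond that the cause was not tested. Depth is unknown, which limits every absent peak.

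The difference in receptor genes with a peak, 2.33, was 1.33 with the median score and 1 with equal numbers, and the difference in receptor peaks, 3.33, was 1.33 and 0.667. Correlations of deviations over 2173 genes were -0.0348, -0.00111 and 0.00406 between libraries of equal replicate number. These lay within the range for unequal numbers, -0.0468 to 0.0492. They showed no pairing by replicate number but cannot exclude a shared batch or preparation. With the replicate block the differences were 2.33 receptor genes, 3.33 peaks and 0.0729 points, which this balanced design fixes to the values without it.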

Other observations

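Merged peak regions numbered 1.70 per 100 kb of gene span and flanks for the 52 receptor genes (20 regions in 1174 kb), where all genes together had 3.40. The 9 dopamine and serotonin receptors, which are G protein-coupled too, had 2.26, and 5 of them had a peak. Dop2R had it in all 6 libraries and Dop1R2 in 2 lead and 0 control libraries. The 10 nicotinic acetylcholine receptor subunits, which form ion channels, had 8.79, and 8 of them had a peak, 4 in all 6 libraries. Of all genes, 12.2% had a peak, 3.69% had one in all 6 libraries and 0.618% had at least 2 more lead than control libraries. Those shares do not allow for gene length. Densities rest on regions pooled over libraries of unequal list length, and the differences between these lists were not tested.

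Within the receptors of the same transmitter, acetylcholine, the ion channel subunits and the muscarinic genes stood at 8 of 10 and 1 of 3 genes with a peak. The subunit genes are longer, with a median span of 37802 bp against 11665 bp for the muscarinic receptors, and the part of length in the difference was not tested.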
